A study of Bos taurus with 16 samples.

Results

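The transcripts of 9 heat shock proteins and of their regulator HSF1 were followed from the mature oocyte to the blastocyst in cattle. The 10 genes were taken by name from the 27393 loci of the deposited data. Each name had 1 locus, and all 10 loci passed the filters on low reads. The samples were single Bos taurus oocytes matured in vivo and single embryos that had developed in vivo, 16 in all with 2 at each of 8 stages. The stages were the oocyte at metaphase of the second meiotic division (MII), embryos of 2, 4, 8 and 16 cells (2C, 4C, 8C and 16C), the early morula (EM), the compact morula (CM) and the blastocyst (BL). The labels give no treatment, and all groups shared 1 preparation. Total RNA of each oocyte or embryo was amplified in 2 rounds before sequencing on the SOLiD platform. The labels do not name the cows or collections behind the samples, so p-values measure the spread between these single samples. Embryonic genome activation (EGA), the start of major transcription from the embryo's own genome, is placed by the study between 4C and 8C. MII, 2C and 4C samples (6) are therefore called before EGA, and the 10 later samples after EGA. Tests between the periods count these 6 and 10 samples as independent, although each stage gave 2 of them. Their p-values therefore do not measure the spread between stages within a period and may be too small.

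Heat shock proteins are molecular chaperones that keep other proteins from misfolding. HSP70 proteins bind short exposed stretches of unfolded chains in cycles driven by ATP, HSP90 proteins act later on near-native clients such as kinases and steroid receptors, and the HSP60 and HSP10 chaperonin of mitochondria encloses a chain while it folds. Each compartment has its own set: HSPA1A, HSPA8, HSP90AA1 and HSP90AB1 work in the cytosol, HSPA5 and HSP90B1 in the endoplasmic reticulum (ER), and HSPA9, HSPD1 and HSPE1 in mitochondria. HSF1 is the transcription factor that raises the stress-inducible members when unfolded protein accumulates. Heat shock genes are well known in early embryos, where an HSP70 transcript is among the first products of the activated mouse genome, and embryos before genome activation have little heat shock response.

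Between 607672 and 3379426 reads per sample were recovered from the deposited values, which are read counts that the authors divided by a size factor for each sample. Levels are given in CPM, the reads on a gene in units of 1e+06 reads of the sample, and the value of 3 reads, taken as the smallest detectable, lay between 0.888 and 4.94 CPM. This floor covers counting error alone, as copies made by amplification cannot be recognised. No transcript lengths were at hand, so a CPM value is compared between stages of 1 gene and not between genes. Ranges, overlaps and orders of stages are given in CPM and can differ on the scale of the deposited values. CPM is a share of the reads, so that a smaller amount of RNA per cell and fewer cells of one kind in the embryo cannot be told apart. A single locus took between 7.44% and 27.0% of the reads before EGA and between 1.54% and 5.90% after it. The 8 oocyte markers examined summed to between 7349 and 10061 CPM in MII, mostly as H1FOO (7085 to 9715 CPM), and to between 4.91 and 8.81 CPM in BL. BMP15 was listed at 0 throughout. The 2 8C samples stood apart on this list, replicate 1 holding 26.0 and replicate 2 1417 CPM of these markers. H1FOO alone made up 21.0 and 1347 CPM of these. The log2 values of the 2 8C samples correlated least of all replicate pairs (r = 0.729 against 0.844 to 0.928 in the other stages). The 8 cumulus and granulosa cell markers summed to between 79.3 and 322 CPM before EGA, mostly as HAS2, and to at most 31.7 CPM after it. AMH was listed at 0, and PTX3, TNFAIP6, VCAN and INHBA had 12, 5, 6 and 7 reads over all samples. HAS2 was higher in 4C (234 to 258 CPM) than in MII (68.7 to 101 CPM). The 6 trophectoderm markers reached 1154 and 1288 CPM in BL, although CDX2 was listed at 0 there. The 4 inner cell mass markers summed to between 123 and 301 CPM before EGA and to between 2520 and 5932 CPM after it, mostly as POU5F1. These lists moved with the periods compared, and their part in the results was not tested.

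In limma fits of log2(deposited value + 1), adjusted by the Benjamini-Hochberg method over every locus tested, 7 of the 10 genes rose from before to after EGA, HSP90B1 fell, and HSPA1A and HSP90AB1 did not pass the threshold of 0.05. Of all 6910 loci tested 36.9% rose and 29.9% fell, so a call as such was common. Without a filter the balance turned, with 3372 higher and 3703 lower of 18318 loci. In 5 of the 10 genes (HSPA8, HSP90AA1, HSPA5, HSPA9 and HSPD1) the 10 later samples all exceeded the 6 earlier ones, which held for 18.4% of the loci tested, while 9.7% of loci lay wholly below and no heat shock gene did. An effect of stage over the 8 stages passed the threshold in 9 of the 10 genes and in 66.7% of loci. HSPE1 was the exception (adjusted p = 0.0564 by limma), and it passed by DESeq2 (0.0227), with total reads (0.0283) and without MII replicate 1 (0.0496), CM replicate 1 (0.0374) or CM replicate 2 (0.0242). The median log2 change of all loci before to after EGA was 0.23 on the deposited scale and 0.68 when samples were scaled to total reads. The 7 rises and the fall kept their direction under both.

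**Figure D1:**
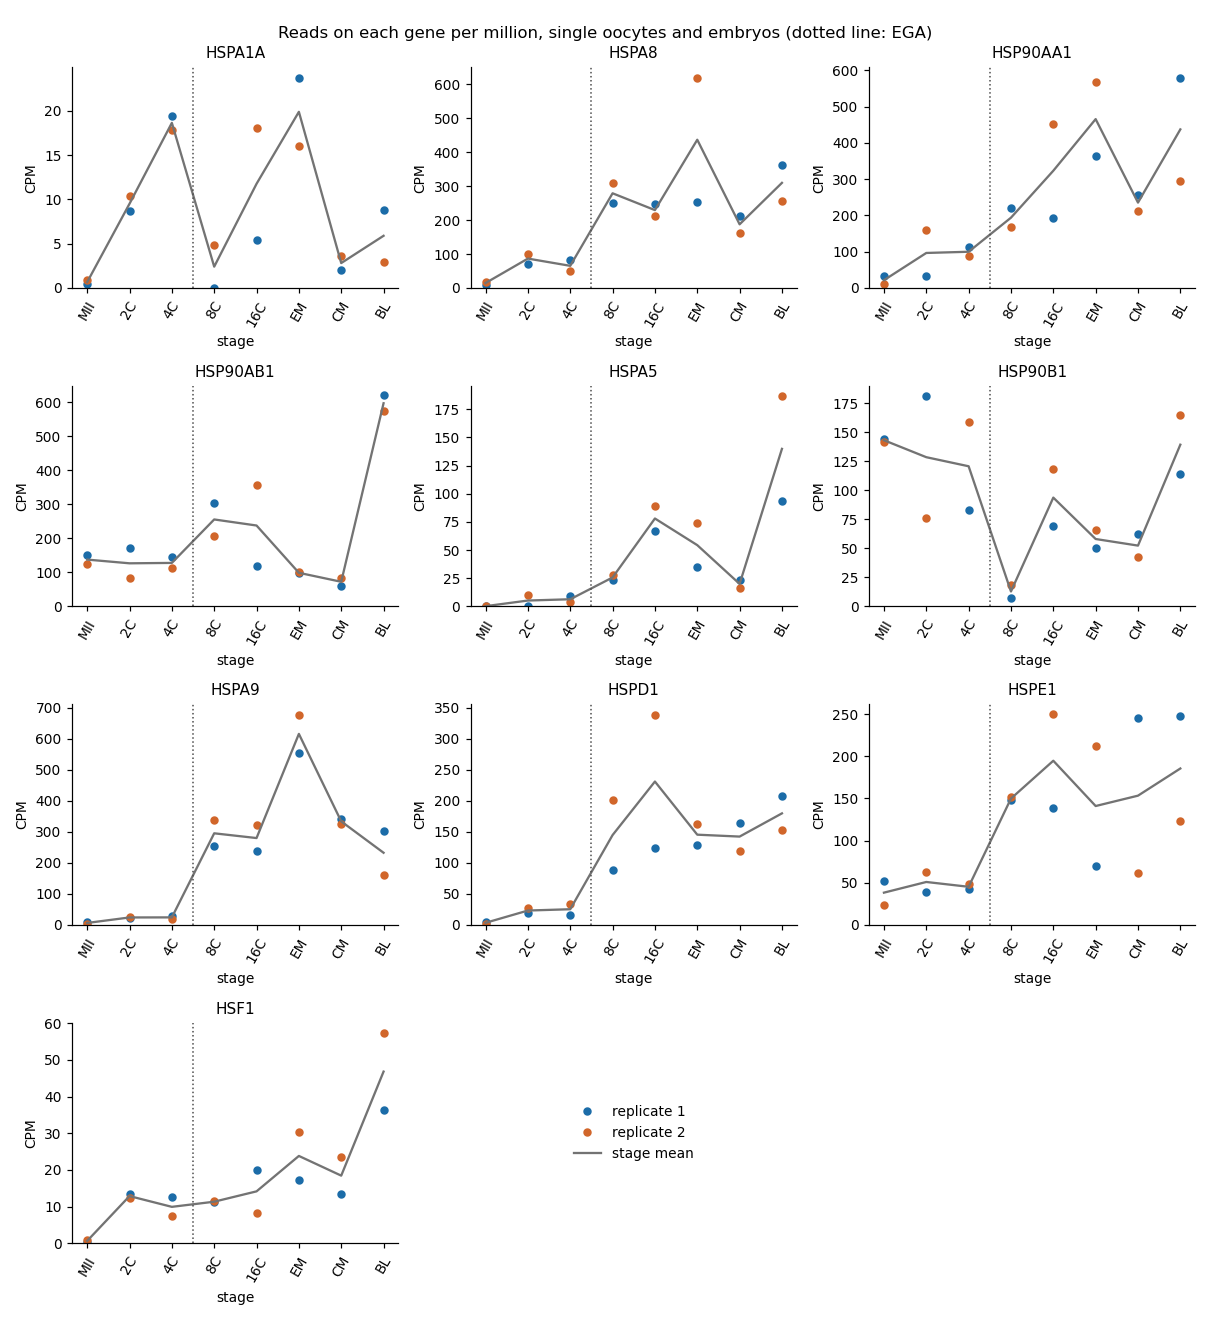
Level of each of the 10 genes in CPM (vertical axis, own linear scale per gene) in every sample by stage (horizontal axis), with points for the 2 replicates, a line through the stage means and a dotted line at EGA. HSPA9, HSPA5, HSPD1, HSPA8 and HSP90AA1 lie higher in all 10 samples after EGA than in any of the 6 before it, whereas HSP90B1 has its lowest stage mean at 8C.

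HSPA9, the HSP70 of the mitochondrial matrix that pulls imported chains through the inner membrane, gave the clearest separation. Its CPM in replicates 1 and 2 was 7.98 and 4.38 in MII, 22.6 and 25.2 in 2C, and 29.2 and 19.0 in 4C. The oocyte and early cleavage embryos thus held little of it, and none exceeded 29.2 CPM. After EGA the CPM was 254 and 337 in 8C, 237 and 323 in 16C, 554 and 677 in EM, 342 and 325 in CM, and 303 and 161 in BL. No sample of one period reached the other, and the EM samples were highest. The mean rose from 18.1 ± 9.84 (SD, n = 6) to 351 ± 153 CPM (n = 10), or 19.5-fold, with a log2 fold change of 3.90 ± 0.32 (SE), adjusted p = 1.7e-09 by limma. Between 2 neighbouring stages, 8C stood 3.58 ± 0.49 log2 units above 4C (adjusted p = 1.2e-04 by limma). The difference from MII to 4C (1.17, adjusted p = 0.14) did not pass, but did with total reads (0.0299). From the lowest stage mean to the highest the order was MII, 2C, 4C, BL, 16C, 8C, CM and EM, and the replicate ranges of neighbours in this order were apart only between MII and 2C, 4C and BL, and CM and EM.

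HSPD1 (HSP60) and HSPE1 (HSP10) together form the chaperonin of the mitochondrial matrix, and in the gene table of assembly ARS-UCD2.0 they are neighbours on 1 chromosome with 0 genes between them. The CPM of HSPD1 before EGA was 4.87 and 1.75 in MII, 19.3 and 26.9 in 2C, and 16.7 and 33.8 in 4C. It was close to the detectable level in the oocyte and higher in every cleavage embryo. After EGA it was 87.9 and 202 in 8C, 124 and 339 in 16C, 128 and 163 in EM, 165 and 119.9 in CM, and 207 and 153 in BL. All 10 samples lay above the 6 earlier ones, and 16C replicate 2 lay well above the rest. HSPD1 rose 9.80-fold in mean CPM, with a log2 fold change of 3.18 ± 0.41 (SE), adjusted p = 7.9e-07 (limma). HSPD1 also rose within the early stages, from 3.31 ± 2.21 (SD, n = 2) in MII to 25.2 ± 12.1 CPM in 4C, a log2 difference of 2.09 ± 0.58 (SE), adjusted p = 0.0392. That call was lost by edgeR on the recovered reads (adjusted p = 0.0748), with a pseudocount of 5 (0.0602), no filter (0.0539) or the compared stages alone (0.196), and without MII replicate 2 (0.259) or either 4C sample (0.106 and 0.248). It also narrowly missed without any 1 sample of EM, CM or BL (0.053 to 0.0595). From 4C to 8C HSPD1 rose again by 2.44 ± 0.58 (adjusted p = 0.005 by limma, 0.0639 without 4C replicate 1 and 0.0715 with the compared stages alone). Its stages ranked MII, 2C, 4C, CM, 8C, EM, BL and 16C by mean, and beyond the gaps from MII to 2C and from 4C to CM all neighbours overlapped.

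HSPE1, the lid of the chaperonin, was already present in the oocyte. Its CPM was 52.3 and 24.1 in MII, 39.3 and 62.4 in 2C, and 42.4 and 47.9 in 4C, so that the 3 early stages overlapped. After EGA the CPM was 148 and 151 in 8C, 139 and 250.1 in 16C, 70.3 and 212 in EM, 245 and 61.4 in CM, and 248 and 123 in BL. Replicates differed most in EM and CM, and 9 of the 10 samples exceeded all earlier ones, CM replicate 2 being the exception. HSPE1 rose from 44.7 ± 13.0 to 165 ± 70.9 CPM, with a log2 fold change of 1.30 ± 0.35 (SE), adjusted p = 0.0026 by limma. At the single step from 4C to 8C the log2 difference was 1.71 ± 0.63 (SE), adjusted p = 0.0458. That step was close to the threshold and missed it by edgeR (adjusted p = 0.0542), with TMM (0.0651), total reads (0.0746), no filter (0.0774) or the replicate block (0.0519), and without either sample of 4C (0.166 and 0.129) or of 8C (0.152 and 0.0763), and narrowly without any 1 sample of 16C or BL (0.0519 to 0.0555). In the order of stage means, MII, 4C, 2C, EM, 8C, CM, BL and 16C, the ranges were apart only between 2C and EM.

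Because both chaperonin subunits come from the same sample, their ratio does not depend on how samples are scaled. The log2 ratio of HSPD1 to HSPE1 reads (0.5 added to each) was -3.49 ± 0.18 in MII, -1.11 ± 0.14 in 2C and -0.91 ± 0.59 in 4C (SD, n = 2). After EGA its stage means lay between -0.17 in 8C and 0.24 in EM. The mean went from -1.84 ± 1.32 (n = 6) to 0.09 ± 0.59 (n = 10), and the difference of 1.93 had p = 3.7e-04 in a two-sided exact permutation test (0.00112 adjusted over 3 ratios). Thus the HSPD1 transcript increased relative to that of HSPE1, with the lowest ratios in the oocytes.

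In the cytosol, HSPA8, the constitutive HSP70 that serves folding and clathrin uncoating in unstressed cells, was also higher after EGA. Its CPM was 10.2 and 18.8 in MII, 71.9 and 101 in 2C, and 81.2 and 49.2 in 4C. The oocytes were lowest and no early sample exceeded 101 CPM. After EGA the CPM was 249.9 and 308 in 8C, 246 and 212 in 16C, 254 and 619 in EM, 212 and 163 in CM, and 362 and 257 in BL. The lowest of these, CM replicate 2, still exceeded every earlier sample, and EM replicate 2 was far above the others. HSPA8 rose 5.20-fold, from 55.4 ± 35.9 to 288 ± 128 CPM, with a log2 fold change of 2.17 ± 0.36 (SE), adjusted p = 1.8e-05 (limma). From 4C to 8C it rose by 2.11 ± 0.54 (SE), adjusted p = 0.00767, a call not kept without 4C replicate 2 (1.75, adjusted p = 0.0806). By stage mean the order was MII, 4C, 2C, CM, 16C, 8C, BL and EM, and 4C with 2C, 8C with BL, and BL with EM overlapped.

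HSPA1A, the stress-inducible HSP70 of the cytosol, changed between single stages but did not pass between the periods. It was covered by 207 reads over all samples. The 2 oocytes held 1 and 2 reads, and the CPM was 0.443 and 0.876 in MII, 8.65 and 10.4 in 2C, and 19.4 and 17.8 in 4C. HSPA1A was below the floor in the oocyte, so that the size of a fitted difference from MII depends on the pseudocount, and it was detected in every 2C and 4C embryo. After EGA its CPM was 0 and 4.81 in 8C, 5.41 and 18.1 in 16C, 23.7 and 16.1 in EM, 2.05 and 3.57 in CM, and 8.84 and 2.94 in BL. The single 0 was in 8C replicate 1, where the floor was 3.71 CPM, and the EM samples reached the level of 4C. HSPA1A rose from MII to 4C by 3.39 ± 0.91 (SE), adjusted p = 0.034 on the log2(value + 1) scale, and fell from 4C to 8C (log2 fold change -3.31 ± 0.91 (SE), adjusted p = 0.0113, limma). The rise was lost by edgeR (adjusted p = 0.0566), with the compared stages alone (0.0978) and without any of the 2 MII (0.116 each) or 2 4C samples (0.177 and 0.147). The fall was lost by edgeR (0.0622), with the compared stages alone (0.137) and without 4C replicate 1 (0.0634), 4C replicate 2 (0.0569) or 8C replicate 1 (0.127). Over the whole periods the log2 difference was -0.42 ± 0.67 (SE), adjusted p = 0.592, with 9.60 ± 8.07 CPM before and 8.55 ± 7.98 CPM after EGA. The effect of stage (adjusted p = 0.022) missed the threshold without MII replicate 1 (0.056) or either 4C sample (0.0631 and 0.0591). Ordered by mean as MII, 8C, CM, BL, 2C, 16C, 4C and EM, all 7 neighbouring pairs overlapped. The gene table lists HSPA1B, a near-identical copy, as a synonym of HSPA1A, and the rule by which reads of both copies were counted is not given in the sources used here, so these values may hold reads of either copy.

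Relative to HSPA8 in the same sample, HSPA1A decreased after EGA. The log2 ratio of HSPA1A to HSPA8 reads was -4.05 ± 0.11 in MII, -3.14 ± 0.19 in 2C and -1.75 ± 0.42 in 4C, the highest of the 8 stages. It was -7.26 ± 1.98 in 8C, where 1 sample had no HSPA1A read and the 0.5 added sets the value, and its means lay between -5.88 in CM and -4.32 in EM later. The values in MII rest on 1 and 2 HSPA1A reads, and CM replicate 1 and BL replicate 2 held 2 such reads each. The difference between periods of -2.55 (-2.98 ± 1.06 before, n = 6, and -5.52 ± 1.49 after, n = 10) had p = 0.00262 by two-sided exact permutation test and 0.00393 adjusted over 3 ratios.

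Of the 2 cytosolic HSP90 genes, 1 rose after EGA and the other did not pass. HSP90AA1 encodes the inducible HSP90 alpha, and its CPM was 33.2 and 9.64 in MII, 33.3 and 159.8 in 2C, and 112 and 87.9 in 4C. MII samples and 2C replicate 1 were low, and the 2 2C samples differed by more than the 2 4C samples. After EGA the CPM was 220.2 and 167 in 8C, 194 and 453 in 16C, 364 and 568 in EM, 257 and 213 in CM, and 579 and 295 in BL. All 10 lay above the 6 earlier samples, with replicates far apart in 16C, EM and BL. HSP90AA1 rose 4.56-fold, from 72.6 ± 57.3 to 331 ± 153 CPM (log2 fold change 2.07 ± 0.40 (SE), adjusted p = 1.2e-04, limma). No shorter interval was called on the deposited scale, with 1.68 from MII to 4C (adjusted p = 0.144) and 0.94 from 4C to 8C (0.305), although the former passed with total reads (0.0443). Its means ranked MII, 2C, 4C, 8C, CM, 16C, BL and EM, with ranges apart between MII and 2C and between 4C and 8C.

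HSP90AB1 encodes the constitutive HSP90 beta and was well represented in the oocyte. Its CPM was 151 and 124 in MII, 170.4 and 82.9 in 2C, and 144 and 112 in 4C. In CPM these 6 values overlapped across the 3 stages. As deposited values, MII (314 and 302) lay above 2C (203 and 102) and 4C (191 and 148). After EGA the CPM was 303 and 208 in 8C, 118 and 357 in 16C, 97.2 and 100.2 in EM, 60.5 and 84.2 in CM, and 619.8 and 574 in BL. In CPM the level was lowest in CM and highest in BL, so the samples after EGA lay both below and above those before. Between periods its log2 difference was 0.06 ± 0.51 (SE), adjusted p = 0.924 (limma), with 131 ± 31.1 CPM before and 252 ± 207 CPM after EGA, and this value changed sign when single samples were left out. The effect of stage passed (adjusted p = 0.00254). HSP90AB1 rose from 72.4 ± 16.8 in CM to 597 ± 32.4 CPM in BL, a log2 difference of 2.87 ± 0.55 (SE), adjusted p = 0.00598 by limma, in a step where 4.42% of 9670 loci passed. Without CM replicate 1 or BL replicate 2 the adjusted p was 0.0524 and 0.0633, and with the compared stages alone 0.104. The 427 loci behind that share became 277 without BL replicate 1, 134 without BL replicate 2, 144 without CM replicate 2, 154 by edgeR and 0 with the compared stages alone. In the order CM, EM, 2C, 4C, MII, 16C, 8C and BL by mean CPM, ranges were apart only at the ends, between CM and EM and between 8C and BL. As deposited values, CM (65.4 and 110.7) and EM (92.0 and 70.8) overlapped.

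The ratio of both HSP90 transcripts differed between the periods. The log2 ratio of HSP90AA1 to HSP90AB1 was -2.92 ± 1.05 in MII, -0.70 ± 2.33 in 2C and -0.35 ± 0.01 in 4C. The 2 2C samples were far apart, at -2.34 and 0.95, and the latter exceeded both samples of 8C, 16C and BL, so that the periods overlapped. The ratio was -0.39 ± 0.11 in 8C and 0.53 ± 0.26 in 16C. It was 2.20 ± 0.42 in EM and 1.71 ± 0.52 in CM, and -0.53 ± 0.61 in BL. The ratio, which is not corrected for transcript length, was thus highest in the morulae, and in BL it lay near its value in 4C and 8C. Between the periods the mean differed by 2.03 (-1.32 ± 1.69 before and 0.70 ± 1.20 after EGA), with p = 0.0132 by two-sided exact permutation test and the same after adjustment over 3 ratios.

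**Figure D2:**
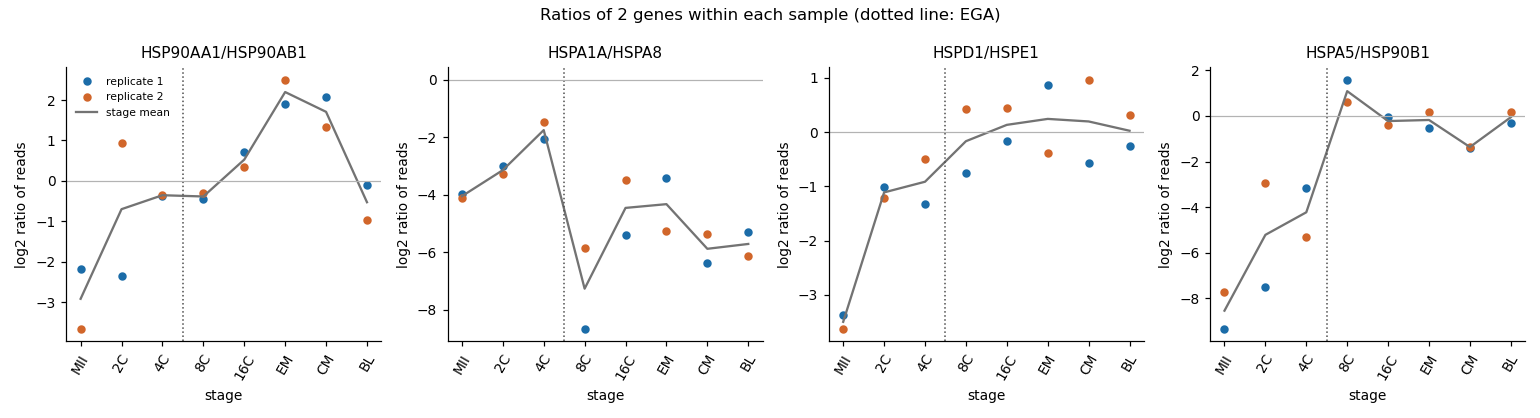
Log2 ratio of reads (vertical axis) of partner or paralog genes within each sample by stage (horizontal axis), one point per sample with a line through the stage means and a dotted line at EGA. HSPD1 to HSPE1 has its lowest values in MII (mean -3.49), HSPA1A to HSPA8 its highest in 4C (mean -1.75), and HSP90AA1 to HSP90AB1 its highest in EM (mean 2.20).

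In the ER, HSPA5 rose and HSP90B1 fell from before to after EGA. HSPA5 (BiP), the HSP70 that binds chains entering the ER and holds the stress sensors of that compartment, was nearly undetected in the oocyte. The 2 MII samples held 0 and 1 reads, and the CPM was 0 and 0.438 in MII, 0.666 and 9.76 in 2C, and 9.03 and 3.69 in 4C. HSPA5 did not exceed 9.76 CPM in any early sample. After EGA its CPM was 23.5 and 27.9 in 8C, 67.2 and 88.9 in 16C, 35.1 and 73.6 in EM, 23.6 and 16.4 in CM, and 93.3 and 186 in BL. Every one of these samples was above the earlier ones, with BL replicate 2 highest. HSPA5 rose 16.2-fold, from 3.93 ± 4.44 to 63.6 ± 51.9 CPM, with a log2 fold change of 3.79 ± 0.60 (SE), adjusted p = 1.1e-05 by limma. The shorter intervals did not pass, with log2 differences of 2.60 from MII to 4C (adjusted p = 0.0634), 1.99 from 4C to 8C (0.0722) and 2.01 from 8C to BL (0.146). The first passed with total reads (0.0406) and a pseudocount of 0.5 (0.0486), the others with a pseudocount of 5 (0.0372 and 0.0372), and without 2C replicate 1 or 2 the first (0.0212 and 0.0238) and the second (0.0254 and 0.0276) passed. The order of means was MII, 2C, 4C, CM, 8C, EM, 16C and BL, and 2C with 4C, CM with 8C, and EM with 16C overlapped.

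HSP90B1 (GRP94), the HSP90 of the ER that folds integrins and secreted proteins, was stored in the oocyte. Its CPM was 144 and 142 in MII, 181 and 75.8 in 2C, and 82.6 and 159 in 4C. The oocytes were close together and the cleavage embryos spread around them. After EGA its CPM was 7.42 and 18.3 in 8C, 68.8 and 118 in 16C, 50.7 and 65.3 in EM, 62.5 and 42.1 in CM, and 114 and 164 in BL. The 8C samples were lowest, and 7 of the 10 samples lay below all earlier ones. HSP90B1 fell from 4C to 8C, from 121 ± 53.7 to 12.9 ± 7.67 CPM, with a log2 fold change of -3.22 ± 0.56 (SE), adjusted p = 6.6e-04 by limma. It rose again from 8C to BL, to 139 ± 35.7 CPM, by 3.15 ± 0.56 (SE), adjusted p = 0.00292. With the compared stages alone the adjusted p was 0.0505 for the fall and 0.149 for the rise. From 8C to 16C the log2 difference was 2.71 ± 0.56 (SE), adjusted p = 0.0404 by limma, in a step where 0.858% of loci passed (83 loci, with 152 by DESeq2 and 122 without a filter). The 83 loci behind that share ranged from 6 (without either 4C sample) to 758 (without 8C replicate 1) with 1 sample left out, and were 44 with the replicate block and 0 by edgeR and with the compared stages alone. For HSP90B1 this step was not called by edgeR (adjusted p = 0.143), with the replicate block (0.0526) or with the compared stages alone (0.43), and was lost in 11 of the 16 fits that left 1 sample out (0.0502 to 0.246), namely without 8C replicate 2 or any sample of MII, 4C, 16C, EM or BL. Before to after EGA HSP90B1 fell by 1.68 ± 0.50 on the log2 scale (adjusted p = 0.00556). The oocyte marker list fell between the same stages. Replicate 2 of 8C, which kept more oocyte markers, mostly H1FOO, held 18.3 CPM of HSP90B1 (19 reads) against 7.42 CPM (6 reads) in replicate 1. Whether the marker list and HSP90B1 are linked was not tested. By mean the stages ranked 8C, CM, EM, 16C, 4C, 2C, BL and MII, with ranges apart between 8C and CM and between EM and 16C.

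Within a sample, the log2 ratio of HSPA5 to HSP90B1 reads, chosen after the values were seen and not tested, was -4.23 ± 1.53 in 4C and 1.09 ± 0.70 in 8C, and it lay between -1.36 in CM and -0.05 in BL thereafter. The ratio in MII (-8.55 ± 1.13) rests on 1 HSPA5 read.

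HSF1, the regulator, was scarce throughout, with 345 reads in all. The oocytes held 3 reads together, each below the floor, and its CPM was 0.443 and 0.876 in MII, 13.3 and 12.4 in 2C, and 12.5 and 7.37 in 4C. Every 2C and 4C embryo lay above both oocytes. After EGA the CPM was 11.1 and 11.5 in 8C, 20.1 and 8.23 in 16C, 17.2 and 30.5 in EM, 13.3 and 23.6 in CM, and 36.3 and 57.2 in BL. The levels of 8C lay within the range of 4C, and BL was highest. HSF1 rose from MII to 4C by 2.49 ± 0.72 (SE), adjusted p = 0.0449 on the log2(value + 1) scale, and before to after EGA by 1.44 ± 0.54 (SE), adjusted p = 0.0222 (limma), with 7.82 ± 5.94 and 22.9 ± 15.0 CPM in the 2 periods. The first call was lost by edgeR (adjusted p = 0.0754), DESeq2 (0.0534), a pseudocount of 5 (0.0926), no filter (0.0535), the replicate block (0.0539) and the compared stages alone (0.135). It was also lost without MII replicate 1 (0.141), MII replicate 2 (0.116), 4C replicate 1 (0.25) or 4C replicate 2 (0.123), and narrowly without any 1 sample of EM, CM or BL (0.0506 to 0.0647). The second was lost by edgeR (0.0902) and without either oocyte (0.0832 and 0.0673). Stage means ranked MII, 4C, 8C, 2C, 16C, CM, EM and BL, and the ranges of MII and 4C, 8C and 2C, and EM and BL were apart.

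Summed over each compartment, the cytosolic genes went from 268 ± 82.4 CPM (range 154 to 356) before EGA to 880.2 ± 366 CPM (464 to 1571) after it. The mitochondrial sum went from 80.0 ± 29.6 (30.2 to 115) to 685 ± 202 CPM (437 to 1052). The periods did not overlap in either sum. In contrast, the ER sum was 135 ± 38.4 CPM before (85.5 to 182) and 135 ± 98.0 CPM after EGA (30.9 to 351), with 38.6 ± 10.8 in 8C, 172 ± 50.5 in 16C and 279 ± 102 in BL. All 10 genes together took 491 ± 100.4 CPM before and 1723 ± 549 CPM after EGA. The sums are descriptions of reads, in which long transcripts weigh more.

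**Figure D3:**
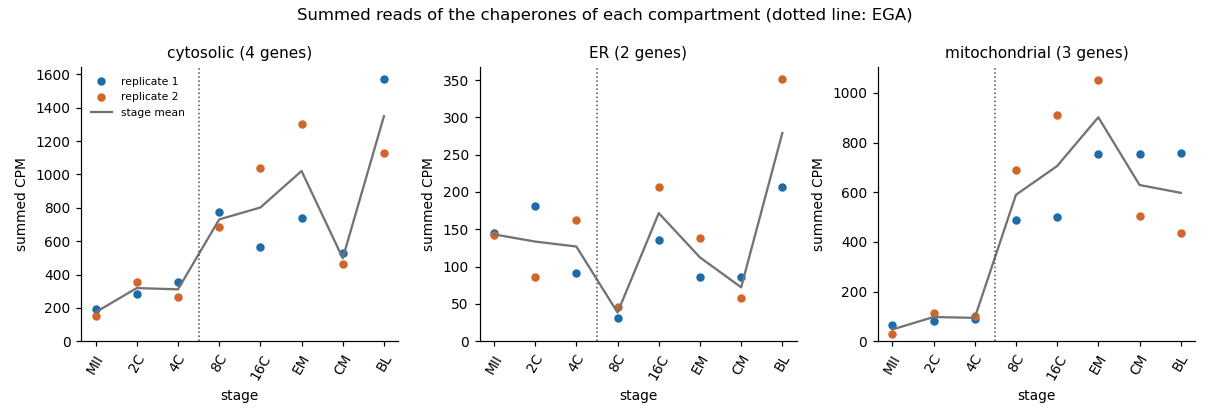
Summed CPM (vertical axis, linear from 0) of the 4 cytosolic, 2 ER and 3 mitochondrial chaperone genes in every sample by stage (horizontal axis), with points for the 2 replicates, a line through stage means and a dotted line at EGA. The cytosolic and mitochondrial sums are higher in all 10 samples after EGA, and the ER sum has its lowest mean at 8C (38.6) and its highest in BL (279).

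Set side by side, the 3 intervals between MII, 4C, 8C and BL differed in how many of the genes passed, although neighbouring intervals share the samples of a stage. From MII to 4C 3 genes rose (HSPA1A, HSPD1 and HSF1) and none fell, where 6.48% of loci rose and 2.19% fell. That interval depended on scaling, since 1057 loci rose and 55 fell with total reads against 627 and 212, and the median log2 change of all loci was 0.69 against 0.15. From 4C to 8C 4 genes rose (HSPA9, HSPD1, HSPA8 and HSPE1) and 2 fell (HSP90B1 and HSPA1A), against 17.7% and 19.1% of loci. The balance of all loci turned with the method there, from 1711 higher and 1849 lower by limma to 1656 and 1083 by edgeR and 1648 and 1191 by DESeq2. From 8C to BL HSP90B1 alone rose, against 6.44% of loci higher and 3.63% lower, and among the others the log2 differences went from -0.72 (HSPA9, adjusted p = 0.394) to 2.01 (HSPA5, 0.146) by limma. The balance turned here too, from 623 higher and 351 lower loci by limma to 141 and 198 by edgeR and 292 and 380 by DESeq2. The median of all loci in that interval was 0.13, and 0.42 with total reads. Between the other neighbouring stages few genes passed. From MII to 2C limma called 0 of the 10 genes (5 at an unadjusted p under 0.05, 0 by edgeR and 1 by DESeq2), with 1.42% of loci called. With total reads 4 of the 10 rose there and 583 loci passed against 137. The loci were 44 by edgeR, 379 by DESeq2 and 0 with the compared stages alone, and with 1 sample left out they ranged from 16 (without MII replicate 2) to 332 (without 8C replicate 2), with 1 of the 10 genes called without 2C replicate 1, 8C replicate 1 or 8C replicate 2. From 2C to 4C 0 genes were called (0 unadjusted, 0 by edgeR and 0 by DESeq2), with 0.0% of loci (0, but 10 without 2C replicate 2 and 14 without a filter). From 16C to EM there were 0 (1 unadjusted, 0 by edgeR and 0 by DESeq2), with 0.103% of loci (10, with 0 without EM replicate 2 to 56 without 8C replicate 2, 0 by edgeR and 117 by DESeq2), and from EM to CM likewise 0 (1 unadjusted, 0 by edgeR and 0 by DESeq2), with 0.0% (0 loci, but 4 without CM replicate 2 and 16 by DESeq2). From 8C to 16C HSP90B1 was called (2 genes unadjusted, 0 by edgeR and 1 by DESeq2). From CM to BL HSP90AB1 was called (3 unadjusted, 1 by edgeR and 2 by DESeq2), while HSPA5 had a log2 difference of 2.52 ± 0.83 (SE), adjusted p = 0.105 by limma. HSPA5 passed in that step by DESeq2 (0.0361), with a pseudocount of 5 (0.0181) and without 2C replicate 1 (0.0406) or 2C replicate 2 (0.0437).

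**Figure D4:**
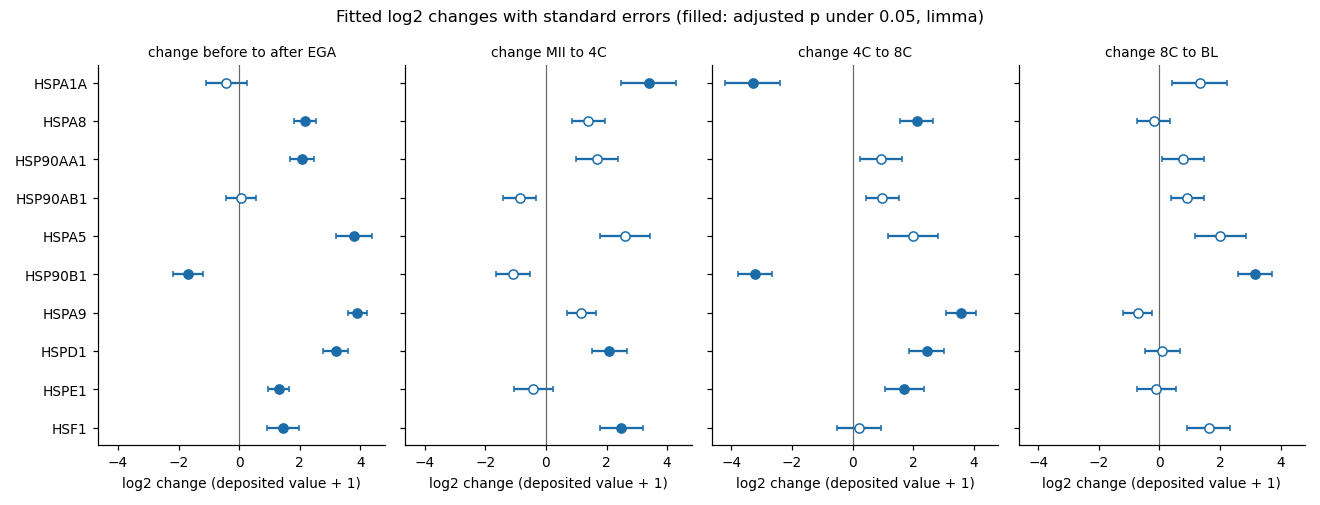
Log2 fold change of each of the 10 genes by limma (horizontal axis) with its standard error as bars, in 4 comparisons, filled points being those with adjusted p under 0.05. Before to after EGA 7 genes lie right of 0 and filled and HSP90B1 lies left, and from 8C to BL HSP90B1 is the only filled point.

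Across the 16 samples the log2 levels of HSPA9 and HSPD1 correlated at r = 0.92 and those of HSPA8 and HSPA9 at 0.91, HSPA9 and HSP90B1 at -0.74, and HSP90AB1 with the other genes between -0.34 and 0.25. These values describe points that share stages and libraries. Of all tested loci with a gene name, those most like HSPA9 were VMP1 and CCT6A, a subunit of the cytosolic chaperonin (both r = 0.979), and those most like HSPD1 were VCP (0.970) and ACAT1 (0.969). For HSPA8 they were TOMM40, the channel of the mitochondrial outer membrane, and RPS15A (both 0.954), and for HSP90AA1 FAM32A (0.950) and ACTN1 (0.945). For HSPA5 they were MYADM (0.939) and OSGEPL1 (0.933), and for HSP90B1 NPC1 (0.916) and SERINC3 (0.911). Likeness was lower for HSF1 (ARF6 and TEAD3, both 0.895), HSPE1 (KIF1C, 0.890, and SLC25A37, 0.871), HSPA1A (KLHL11, 0.857, and EML4, 0.855) and HSP90AB1 (DSTN, 0.840, and PLS1, 0.809).

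The partners of these chaperones were read from 8 lists of 99 genes, of which 95 were found by name and 59 could be tested before against after EGA. Of these 25 rose, 12 fell and 22 did not pass, beside 36.9% and 29.9% of all loci. Of 69 tested, 7 rose and 1 fell from MII to 4C, beside 6.48% and 2.19% of all loci. From 4C to 8C 11 rose and 6 fell, beside 17.7% and 19.1%. From 8C to BL 2 rose and 1 fell, beside 6.44% and 3.63%. Among the HSP70 and HSP110 relatives, 1 of 6 tested rose and 0 fell, with a median log2 change of -0.20 beside 0.23 over all loci. HSPA4 rose from 29.6 ± 18.8 to 113 ± 45.2 CPM (log2 fold change 1.68, adjusted p = 1.8e-04). Of the DNAJ co-chaperones, which deliver chains to HSP70, 9 of 19 rose and 2 fell (median 0.78). DNAJB4 fell from 17.8 ± 8.73 to 0.763 ± 1.60 CPM (log2 fold change -4.14, adjusted p = 3.8e-07). DNAJB9, an ER co-chaperone of HSPA5, was listed at 0 in all 6 samples before EGA and had 21.5 ± 21.7 CPM after it (adjusted p = 4.8e-07). In the list of nucleotide exchange factors, which release ADP from HSP70, 1 of 8 tested rose and 4 fell (median -0.46). The 8 include ST13, a partner of HSP70 that is not an exchange factor and did not pass (log2 fold change 0.34, adjusted p = 0.369 by limma). BAG5 rose from 0.418 ± 0.516 to 17.7 ± 19.3 CPM (log2 fold change 2.96, adjusted p = 4.8e-04), a gene near the floor before EGA, at no more than 1.18 CPM. GRPEL2, an exchange factor of mitochondrial HSP70, fell from 60.9 ± 30.9 to 11.4 ± 8.68 CPM (log2 fold change -2.95, adjusted p = 1.7e-06). GRPEL1, another of this kind, fell too (log2 fold change -2.24, adjusted p = 8.6e-05 by limma).

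In the list of HSP90 co-chaperones 6 of 11 tested rose and 3 fell (median 1.21). The rises include that of TRAP1, the mitochondrial HSP90 itself rather than a co-chaperone, and its log2 change is that median. CDC37, which brings kinases to HSP90, rose from 27.9 ± 14.5 to 251 ± 100.4 CPM (log2 fold change 2.81, adjusted p = 3.5e-07). FKBP5, a co-chaperone of steroid receptor complexes, fell from 69.9 ± 25.9 to 9.46 ± 7.51 CPM (log2 fold change -3.55, adjusted p = 1.0e-06). Of 9 small heat shock proteins found, HSPB1 (HSP27) was the 1 with enough reads for the test, and it rose from 1.60 ± 1.25 to 59.5 ± 40.4 CPM (log2 fold change 4.42, adjusted p = 1.5e-07). HSBP1, a binding protein of heat shock factors, was the 1 tested gene of its list and rose from 131 ± 90.6 to 829 ± 274 CPM (log2 fold change 2.49, adjusted p = 3.7e-06). In the ER list 5 of 8 rose and 2 fell (median 1.26). CALR, the lectin chaperone calreticulin, rose from 16.1 ± 15.7 to 157 ± 181 CPM (log2 fold change 2.72, adjusted p = 5.7e-04). P4HB, a protein disulfide isomerase, rose from 429.8 ± 104 to 3186 ± 916 CPM (log2 fold change 2.38, adjusted p = 3.7e-06). CANX, XBP1, HSF4, HSPB2 and CRYAA were listed at 0 in every sample, and whether their loci were annotated so as to collect reads was not tested. In mitochondrial quality control 1 of 5 rose and 1 fell (median 0.08), and the 2 belong to the proteases that degrade matrix proteins. LONP1 rose from 72.8 ± 41.4 to 3791 ± 1423 CPM (log2 fold change 5.29, adjusted p = 2.9e-10). CLPX, the unfoldase of the ClpP protease, fell from 121 ± 36.1 to 43.1 ± 20.3 CPM (log2 fold change -2.05, adjusted p = 1.8e-05).

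**Figure D5:**
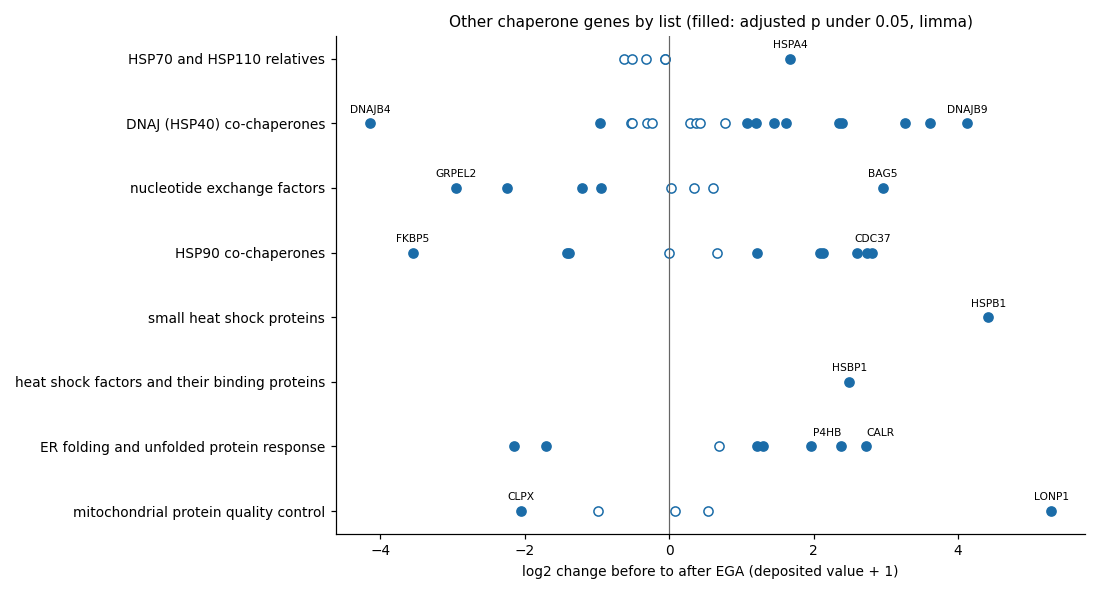
Log2 fold change by limma from before to after EGA (horizontal axis) of every tested gene in 8 lists of chaperone partners (vertical axis), 1 point per gene, with filled points for adjusted p under 0.05 and names for the genes with the largest change in each list. LONP1 lies farthest right (5.29) and DNAJB4 farthest left (-4.14).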

How the data were processed

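RNA-Seq values of single bovine oocytes and embryos, 2 per stage at 8 stages, were analysed. The deposited values are a signal: the authors trimmed, mapped and counted reads per locus and divided the counts by a factor per sample, the last step being read from the values. The submitters' processing notes name cutadapt, TopHat, Cufflinks, HTSeq and FastQC. Versions, the genome build, and the rules for strand and for reads mapping to several places are not given in the sources used here. Within each sample, dividing by the smallest non-zero value gave whole numbers for 100% of values (tolerance 0.01), taken as the reads (607672 to 3379426 per sample).

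Loci were kept by edgeR's filterByExpr (9670 in the fit of 8 stages, 6910 before against after EGA). The main test was limma's moderated test with a trend (limma 3.58.1 in R 4.3.3) on log2(deposited value + 1), which understates changes of low genes, with Benjamini-Hochberg adjustment over all loci kept at 0.05. Log2 ratios within samples (0.5 reads added) were compared by exact permutation (scipy 1.17.1). It moved single samples between the periods, and neither it nor the limma fit of the 2 periods took account of stage. The effect of stage was limma's moderated F test over the 8 stages. The study used one-way ANOVA on TPM without this adjustment, so the statistic, the input and the threshold differ. Alternatives were TMM and total-read scaling, pseudocounts of 0.5 and 5, no filter, edgeR 4.0.16 and DESeq2 1.42.0 on the reads, a replicate block, the compared stages alone, summed loci of a name (9302 loci in the fit of 8 stages) and each sample left out. The steps between neighbouring stages were added after the data were seen. The heat shock genes and the lists were chosen with earlier results of these data known. Every heat shock gene is named, and of each partner list the 2 tested genes with the largest change past the threshold are named. TRAP1, ST13 and GRPEL1 are named beside these. The 2 loci most correlated with each heat shock gene are named too. Of the lists, DNAJC1, CDC37L1, HSPB7 and HSF5 are not analysed here. No sequences or coordinates are printed, as neither a genome nor sequences were at hand.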

Additional observations from a re-analysis of the deposited data

Results flagged for a closer look

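After EGA, 3 of the 10 genes had 1 sample far above the rest of the 10 by Dixon's criterion, which compares the gap to the next sample with the whole range. Chance marks about 1 in 20 groups, and 26 groups of samples were examined. HSPA8 stood at 619 CPM in EM replicate 2, with 362 CPM in the next sample. HSPA5 stood at 186 CPM in BL replicate 2, with 93.3 CPM next. HSPD1 stood at 339 CPM in 16C replicate 2, with 207 CPM next. The 3 values come from 3 different samples, and each gene kept its rise from before to after EGA in limma when that sample was left out.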

How the results depend on the processing

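Over 9 alternatives and 16 fits that left 1 sample out, the rises of HSPA9, HSPA5, HSPD1, HSPA8, HSP90AA1 and HSPE1 and the fall of HSP90B1 before to after EGA kept their direction and stayed past the threshold. The early interval depended most on the processing. From MII to 4C, where 3 heat shock genes passed, the number was 7 with scaling to total reads, 1 with a pseudocount of 5, 1 without a filter, 0 by edgeR and 0 with the compared stages alone. From 4C to 8C it was 3 instead of 6 with the compared stages alone, and from 8C to BL 2 instead of 1 with a pseudocount of 5 and 0 with the compared stages alone. Fits on the compared stages alone have 4 samples. With single samples left out the numbers ranged from 8 to 10 for the effect of stage, 7 to 8 before to after EGA, 0 to 4 from MII to 4C (0 without MII replicate 2, 4C replicate 1 or 4C replicate 2), 3 to 7 from 4C to 8C (3 without either 4C sample) and 1 to 1 from 8C to BL. Of all loci, 7075 passed before to after EGA without a filter against 4619. From MII to 4C 398 loci passed by edgeR, 176 with the compared stages alone and as few as 29 with 1 sample left out (4C replicate 1), 38 (4C replicate 2) or 96 (MII replicate 2) against 839. From 4C to 8C 1297 passed with the compared stages alone, 2042 without 4C replicate 1 and 1993 without 4C replicate 2 against 3560. From 8C to BL 339 passed by edgeR, 0 with the compared stages alone, and 235, 470 and 629 without BL replicate 2, BL replicate 1 and 8C replicate 2 against 974. The cause was not tested. The differences that changed sign did not pass the threshold in limma. With single samples left out, the log2 difference ranged from -0.13 to 0.24 for HSP90AB1 before to after EGA, from -0.86 to 0.029 for HSPE1 from MII to 4C, from -0.14 to 0.57 for HSF1 from 4C to 8C, and, from 8C to BL, from -0.051 to 2.70 for HSPA1A, -0.40 to 0.035 for HSPA8, -0.36 to 0.55 for HSPD1 and -0.56 to 0.37 for HSPE1. With total reads the difference was 0.34 for HSPE1 from MII to 4C, and 0.14 for HSPA8 and 0.22 for HSPE1 from 8C to BL. For HSPD1 from 8C to BL it was -0.040 by TMM and -0.044 by edgeR. The 3 ratios tested kept their calls, with differences of 1.56 to 2.48 (HSP90AA1 to HSP90AB1), -2.78 to -2.20 (HSPA1A to HSPA8) and 1.57 to 2.19 (HSPD1 to HSPE1) with single samples left out. Samples with the same replicate number did not deviate together (28 pairs of stages, r from -0.26 to 0.13, 1 above 0.1), so the numbers are names. With the replicate block 9, 8, 2, 5 and 1 heat shock genes passed for the effect of stage, before to after EGA, MII to 4C, 4C to 8C and 8C to BL, HSF1 (MII to 4C) and HSPE1 (4C to 8C) being the ones lost, beside HSP90B1 in the step from 8C to 16C. Depth limits HSPA1A, HSF1 and early HSPA5, whose values in MII rest on 0 to 2 reads per sample.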
